A study of Mus musculus with 9 samples.

Results

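The comparison set prefrontal cortex (PFC) from Rag1-/- mice given vehicle against PFC from wild-type (WT) mice. It used 6 of the 9 RNA sequencing libraries of the series, 3 labelled Rag1-/- + vehicle (replicates 1, 2 and 3) and 3 labelled WT (replicates 1, 3 and 6). The other 3 libraries came from Rag1-/- mice given extracellular vesicles. They entered the filter on reads, the scaling of libraries and the estimate of the spread between libraries, but not the contrast. Every gene row of the count table was a candidate, and 17948 of 56246 rows had enough reads to be tested. The mice were males on a C57BL/6 background, those labelled Rag1-/- carried the Rag1 deletion in every cell from conception, and all were perfused before the frontal cortex was taken. The labels name the mark "med" in the titles of both groups but list a vehicle treatment for the Rag1-/- libraries and none for the WT libraries. The study's supplement describes both groups as medium-injected, so the groups differ by genotype, although the treatment label of WT does not name the injection. Nothing in the labels says that each library was 1 mouse, so the tests measure the spread between these libraries.

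Rag1 encodes a subunit of the recombinase that cuts and joins antigen receptor genes, and mice without it make no mature T or B cells. The prefrontal cortex is a network of glutamatergic pyramidal neurons and GABAergic interneurons that takes part in social behaviour, and the study asked how its transcripts differ in mice without lymphocytes. Excitatory synapses there pair a presynaptic terminal, which holds vesicles and the proteins that recycle them, with a postsynaptic density of receptors anchored by scaffold proteins. Astrocytes wrap these synapses, clear glutamate and store glycogen.

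Rag1 itself was counted higher in the libraries labelled Rag1-/- + vehicle. It had 284, 265 and 291 reads (7.82, 7.04 and 6.85 CPM, reads scaled to the library's size) in Rag1-/- + vehicle, against 37, 32 and 9 reads (1.09, 0.842 and 0.232 CPM) in WT. The groups did not overlap, and the log2 fold change was 3.34 ± 0.34 (SE, adjusted p = 0.0127 by edgeR's quasi-likelihood test). Rag1 lies on chromosome 2 at positions 101638282 to 101649501 of GRCm38 on the minus strand. Reads were summed over the whole gene, so they do not separate the deleted part from the rest and do not check the genotype labels. Every direction given here rests on those labels. Of 6 defining T and B cell markers (Cd3d, Cd3e, Cd3g, Cd8a, Cd8b1 and Ms4a1), none had more than 5 reads in any of the 6 libraries. Of 31 lymphocyte markers listed, 11 had enough reads to be tested and Rag1 was the member called. The summed level of the 31 was 40.0, 46.0 and 46.7 CPM in Rag1-/- + vehicle, against 34.5, 33.3 and 42.2 CPM in WT.

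Gene reads per library were 36.0, 38.9 and 41.2 M in Rag1-/- + vehicle, against 33.8, 36.6 and 37.1 M in WT. One library stood apart. Of uniquely assigned reads, 6.78, 6.90 and 6.54% fell outside annotated exons in Rag1-/- + vehicle, against 10.9, 8.11 and 30.1% in WT, the last value being WT replicate 6. The shares averaged 6.74 ± 0.183% in Rag1-/- + vehicle and 16.4 ± 12% in WT (SD, n = 3 each; exact permutation p = 0.1, 2-sided, the smallest this design can give). WT replicate 6 also had 21389 genes with at least 10 reads, against 16326 to 17662 in the other 5 libraries, and lay at 80.8 on the first principal component, which held 59.95% of the variance. The counts for gene lists and families below are therefore given with WT replicate 6 in the fit and without it. When this share entered the fit as a covariate, 14 genes were called higher and 95 lower, against 1128 and 1743 without the covariate. The shares of the groups did not overlap, so the covariate and the genotype cannot be fully told apart. Under the covariate the astrocyte list kept 14 members lower, and the AMPA receptor, adhesion and granin lists had 1 higher each. The synaptic vesicle, GABA receptor, axon guidance, ion channel, monoamine receptor, calmodulin-dependent kinase and protein kinase C lists had 0 called. The excitatory neuron genes Slc17a7 and Tbr1 were read in all 6 libraries. The choroid plexus gene Ttr was at 1.84, 0.85 and 0.165 CPM in Rag1-/- + vehicle, against 0.5, 0.316 and 0.592 CPM in WT. Summed over the choroid plexus and ependyma list, levels were 289, 248 and 231 CPM in Rag1-/- + vehicle, against 191, 239 and 125 CPM in WT. The striatum list summed to 629, 635 and 614 CPM in Rag1-/- + vehicle, against 597, 663 and 644 CPM in WT. Both lists overlapped between groups, and how much neighbouring tissue each library held was not tested.

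In the PFC of Rag1-/- + vehicle mice, the genes called in the lists of synaptic vesicle proteins, adhesion molecules, AMPA and GABA receptors and secretory granule proteins were all higher than in WT. Those called in the lists of cytosolic ribosomal proteins and astrocyte markers were all lower. At a Benjamini-Hochberg adjusted p under 0.05 in edgeR, 1128 genes were called higher, 6.28% of those tested, and 1743 were called lower, 9.71%. Most shifts were modest: the median absolute log2 fold change of the called genes was 0.563, and 269 of those higher and 1071 of those lower passed a fold of 1.5. The median over all genes tested was -0.0306. When WT replicate 6 was left out, 598 genes (3.31%) were called higher and 885 (4.9%) lower, with 568 and 794 of them called in both fits. The counts depended on single libraries. Leaving out 1 at a time, 3 genes were called less vehicle replicate 1, 0 less vehicle replicate 2, 0 less vehicle replicate 3, 1 less WT replicate 1 and 6602 less WT replicate 3. With 0 called, 5278 (less vehicle replicate 2) and 5258 (less vehicle replicate 3) genes still had an unadjusted p under 0.05, against 6461 with every library. The 6 libraries alone gave 0 calls in edgeR (5387 at an unadjusted p under 0.05) and 3638 in DESeq2. In 38.1% of all genes the 3 values of one group lay wholly above or below those of the other. For protein-coding genes and non-coding genes inside introns, the plot sets the fits with and without WT replicate 6 side by side.

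**Figure D1:**
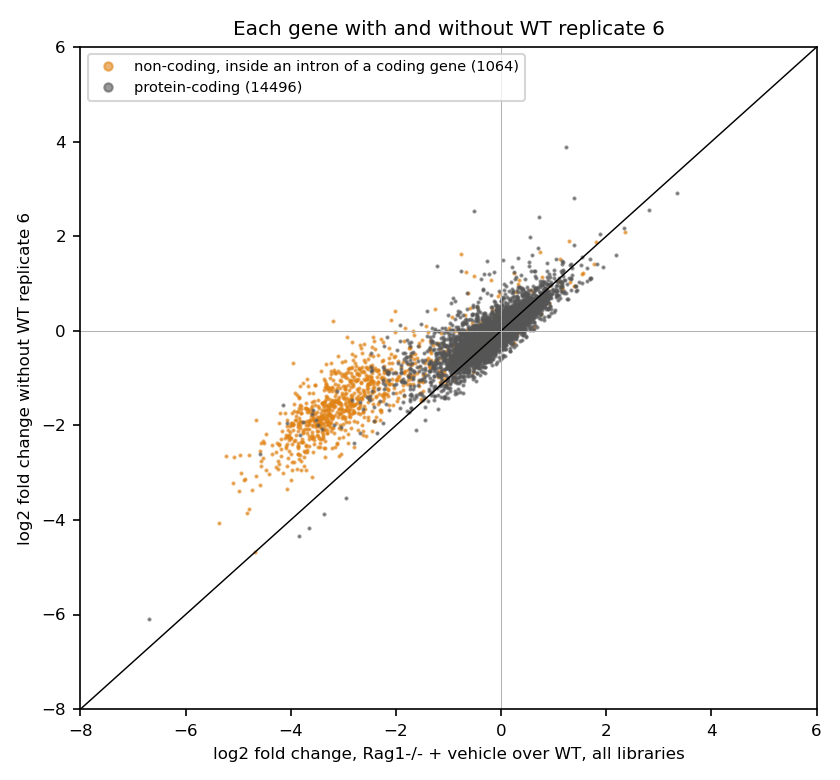
Each point is a protein-coding gene or a non-coding gene inside an intron of a coding gene, coloured by that class. The log2 fold change (Rag1-/- + vehicle over WT) from all libraries is on the horizontal axis, and that without WT replicate 6 on the vertical axis. Other tested genes and the calls are not drawn. The median of the 1064 non-coding genes inside introns was -2.71 with all libraries and -1.2 without that library. The median of the 14496 protein-coding genes was 0.0338 and 0.029.

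The protein-coding genes ranked highest by fold change with and without WT replicate 6 are drawn by library in the plot of named genes. The ranking took genes called with all libraries, at 5 CPM or more and without overlap between groups. Without WT replicate 6 it asked for the same sign and an unadjusted p under 0.05, not a call. Prrt1, which encodes a transmembrane partner of AMPA receptors, had 45.6, 64.2 and 57.5 CPM in Rag1-/- + vehicle, against 24.7, 28.0 and 19.0 CPM in WT. Every vehicle library lay above every WT library, with a log2 fold change of 1.22 ± 0.15 (adjusted p = 0.015). Sez6, a neuronal membrane protein that shapes dendrites and complement activity, averaged 132 ± 22.6 CPM in Rag1-/- + vehicle and 64.0 ± 11.2 CPM in WT (SD, n = 3 each; log2 fold change 1.04). Cdh13, a lipid-anchored cadherin of inhibitory and excitatory synapses, had 34.2, 55.1 and 67.5 CPM in Rag1-/- + vehicle, against 23.3, 30.3 and 22 CPM in WT. Its lowest vehicle value stayed above the highest WT value by a small margin. The mitochondrial gene mt-Nd6, whose strand is opposite to that of the other mitochondrial messenger RNAs, had 207, 448 and 295 CPM in Rag1-/- + vehicle, against 108, 106 and 112 CPM in WT (log2 fold change 1.54 ± 0.24, adjusted p = 0.015). Since counting ignored strand, reads from its antisense partner could not be kept apart. Of 13 tested mitochondrial genes for proteins and ribosomal RNAs it was the 1 called, with and without WT replicate 6. With offsets for GC content and gene length, 7 of the 13 were called higher and the median was 0.896, against 0.0279 without the offsets. The mitochondrial transfer RNA gene mt-Tp fell by 0.69 (adjusted p = 0.0424). Also among the 15 were Thsd4 and the extracellular matrix genes Fmod and Spon1, with log2 fold changes of 0.79, 1.13 and 0.77, the splicing factor gene Sf3a2 at 0.88 and the orphan receptor gene Mrgpre at 1.04. Susd2, Tceal5 and Erich3, at 0.97, 1.01 and 1.02, were higher too, as were 2310061I04Rik and, described with the secretory genes, Chgb and Sst.

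Among the genes lower by the same ranking, Ppp1r3c, which brings a phosphatase to glycogen and favours its synthesis, had 52.8, 52.8 and 49.0 CPM in Rag1-/- + vehicle, against 108, 85.1 and 105 CPM in WT. The groups were far apart relative to their spread (log2 fold change -0.95 ± 0.10, adjusted p = 0.0141). Timp4, an inhibitor of matrix metalloproteinases, averaged 19.7 ± 1.59 CPM in Rag1-/- + vehicle and 35.9 ± 5.79 CPM in WT (log2 fold change -0.87). Rgs5, a pericyte regulator of G protein signalling, had 82.2, 81.4 and 88.6 CPM in Rag1-/- + vehicle, against 192, 125 and 141 CPM in WT. Lyz2, the lysozyme of myeloid cells, had 3.47, 3.16 and 3.67 CPM in Rag1-/- + vehicle, against 5.62, 11.9 and 6.05 CPM in WT. Its WT values were uneven, with replicate 3 highest, and the log2 fold change of -1.19 was -0.72 without that library. The cation channel gene Trpc6, the retinaldehyde dehydrogenase gene Aldh1a1 and the chemokine gene Ccl25 had log2 fold changes of -0.81, -0.84 and -1.30, the last being -0.79 without WT replicate 6. Kctd12b, the ribosomal protein genes Rps27l and Rps14, and Zfp931 were lower with log2 fold changes of -0.82, -0.94, -0.95 and -0.98, though Zfp931 turned to 0.22 with offsets for GC content and gene length. For Snhg11 (-2.06), Spaca6 (-1.70), AC149090.1 (-1.44) and Gm14399 (-1.32) WT replicate 6 was the highest library, and without it the values were -0.88, -0.82, -0.84 and -0.79. Snhg11 then missed the threshold (adjusted p = 0.0642), as did Trpc6 (adjusted p = 0.0587).

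**Figure D2:**
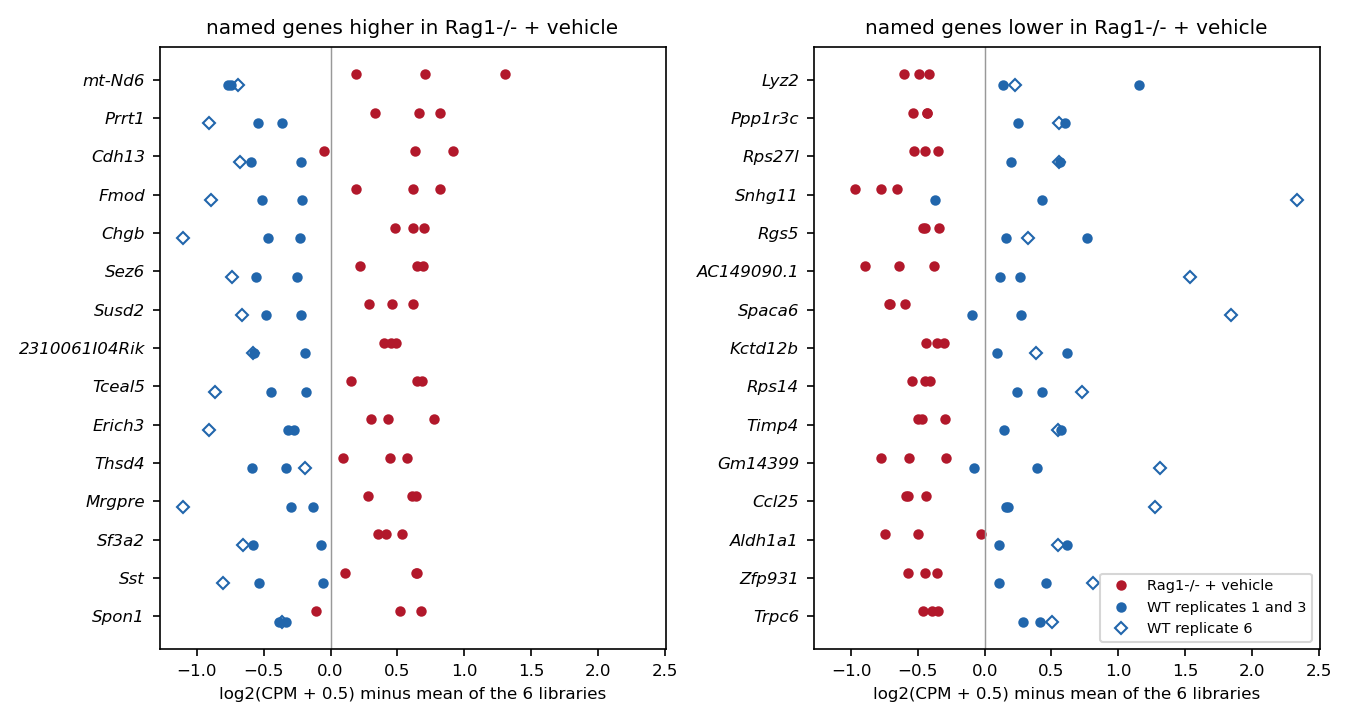
Each row is a gene named by the ranking and each point a library, drawn as log2(CPM + 0.5) minus the mean of the 6 libraries, with genes higher in Rag1-/- + vehicle in one panel and genes lower in the other. Vehicle and WT points do not overlap in any row, which the ranking required. The open diamond of WT replicate 6 is the farthest from the vehicle points in several rows, among them Snhg11 and Spaca6.

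The synaptic vesicle list had the highest share of members called higher of the 55 lists. Of 44 synaptic vesicle genes tested, 21 rose (47.7%) and 0 fell, with a median log2 fold change of 0.478, and 14 rose without WT replicate 6. With the covariate for reads outside exons 0 rose and the median was 0.188. Syn1, whose product tethers vesicles to actin, had 598, 657 and 611 CPM in Rag1-/- + vehicle, against 409, 463 and 335 CPM in WT. The groups were separate and the log2 fold change was 0.63 ± 0.11 (adjusted p = 0.019). Sv2a, a vesicle glycoprotein that binds the antiepileptic levetiracetam, averaged 452 ± 31.6 CPM in Rag1-/- + vehicle and 257 ± 72.6 CPM in WT (0.82 ± 0.18). Dnm1 and Dnm3, dynamins that pinch vesicles from the membrane, rose by 0.64 and 0.59. Sncb (0.73), which encodes beta-synuclein, and Atp6v0a1 (0.58), a subunit of the proton pump that fills vesicles, rose as well. By library, the median member lay at 0.173, 0.219 and 0.284 log2 units from the mean of the 6 libraries in Rag1-/- + vehicle, against -0.200, -0.00902 and -0.479 in WT. WT replicate 3 was the nearest to the vehicle libraries and WT replicate 6 the farthest, and the WT libraries had the same order in their share of reads outside exons. Active zone and SNARE genes were called in both directions, at shares near the 6.28% higher and 9.71% lower of all genes tested. Of 37, 4 rose (10.8%), among them Stxbp5, Nsf and Doc2a. Another 5 fell (13.5%): Rims2, Rims4, Unc13c, Ppfia3 and Apba1. The counts were 3 and 2 without WT replicate 6, and 0 were called with the covariate. Nsf, an ATPase that takes SNARE complexes apart, rose by 0.55, whereas Unc13c, a priming factor, fell by 0.79 on the log2 scale and Rims4 by 0.51.

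Synaptic adhesion genes were called in 1 direction. Of 56 tested, 22 rose (39.3%), 0 fell and 55 had a positive log2 fold change, with a median of 0.413. The fit without WT replicate 6 gave 14 higher and 0 lower, and the covariate for reads outside exons left 1 higher with a median of 0.217. Flrt2, a leucine-rich ligand of latrophilins, had 134, 137 and 139 CPM in Rag1-/- + vehicle, against 91.6, 95.7 and 74.8 CPM in WT (0.65 ± 0.10, adjusted p = 0.015). The 3 vehicle values were nearly equal and the groups did not overlap. Flrt3 (0.59), the contactin gene Cntn4 (0.51) and the neurexin gene Nrxn3 (0.55) rose, and so did Clstn1 (0.74), a calsyntenin that links cargo to kinesin. The calls included 3 of the calsyntenins (Clstn1, Clstn2 and Clstn3), Slitrk1, Slitrk3 and Slitrk5, and Lrfn1, Lrfn2 and Lrfn3. Nlgn1, a neuroligin of excitatory synapses, was not called at 143 ± 14.6 CPM in Rag1-/- + vehicle and 124 ± 16.8 CPM in WT (adjusted p = 0.297), whereas Nlgn2 and Nlgn3 rose by 0.51 and 0.47.

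Axon guidance ligands and receptors were called higher in 24 of 66 cases (36.4%) and lower in 1, with a median of 0.347, and in 13 and 1 without WT replicate 6. Ephb6, a kinase-inactive Eph receptor, averaged 173 ± 19.2 CPM in Rag1-/- + vehicle and 106 ± 16.6 CPM in WT (SD, n = 3 each; log2 fold change 0.71 ± 0.12, adjusted p = 0.017). The groups did not overlap. Ligands and receptors both rose, among them the repellents Slit1 (0.74) and Slit2 (0.45) and the receptors Robo1 (0.41), Plxna2 (0.61) and Epha4 (0.61). The member that fell was Plxnb1, the plexin that binds Sema4d, at 99.8, 94.7 and 78.4 CPM in Rag1-/- + vehicle, against 138, 126 and 117 CPM in WT (-0.48 ± 0.10). With offsets for GC content and gene length, 6 members rose and 1 fell, with a median of 0.273. The offsets also left fewer genes of all kinds called higher, 804 against 1128.

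**Figure D3:**
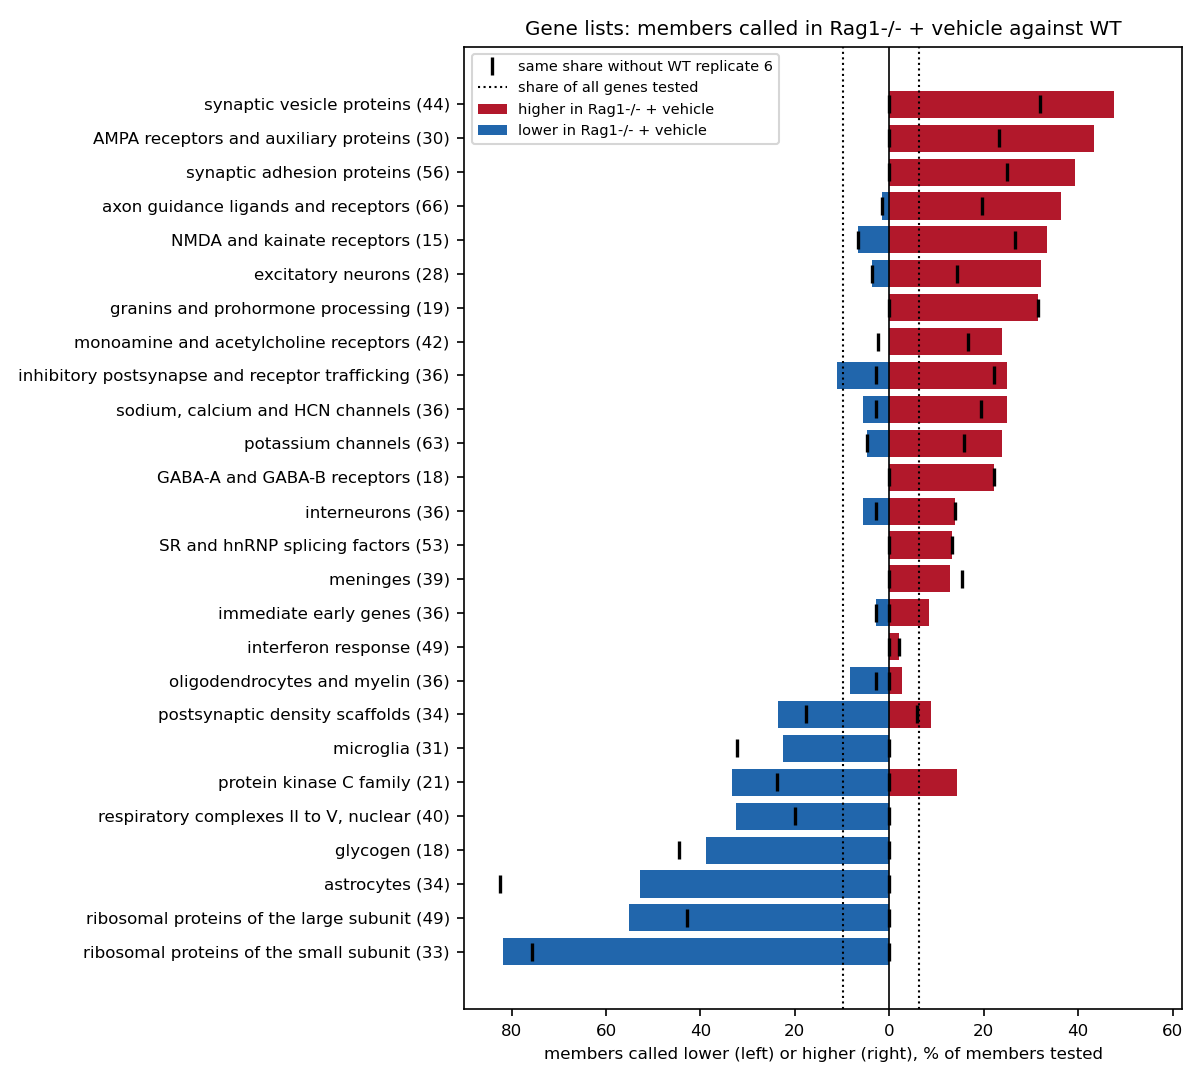
Bars give the percentage of tested members of each gene list called higher (right) or lower (left) in Rag1-/- + vehicle against WT, black ticks give the percentage without WT replicate 6, and dotted lines the percentages among all genes tested, 6.28% and 9.71%. Synaptic vesicle, AMPA receptor and adhesion lists extend to the right, and ribosomal protein and astrocyte lists extend to the left.

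Glutamate receptor genes that passed the test were mostly higher. Of 30 AMPA receptor subunits and auxiliary proteins, 13 rose (43.3%) and 0 fell, and 7 rose without WT replicate 6. Gria2, the subunit that makes AMPA receptors impermeable to calcium, had 662, 680.4 and 668 CPM in Rag1-/- + vehicle, against 467, 562 and 431 CPM in WT. The vehicle values were close together and above each WT value (0.46 ± 0.11, adjusted p = 0.028). Gria1 and Gria3 rose by 0.36 and 0.50, the auxiliary genes Shisa7 and Cacng3 by 0.53 and 0.57, and Nptx1, a pentraxin that clusters the receptors, by 0.64. Gria1 missed the threshold without WT replicate 6 (adjusted p = 0.0887). Of 15 NMDA and kainate receptor genes, 5 rose (33.3%) and 1 fell, with 4 and 1 without WT replicate 6. Grin1, the obligatory NMDA receptor subunit, had 288, 278 and 228 CPM in Rag1-/- + vehicle, against 154, 202 and 124 CPM in WT (0.73 ± 0.16, adjusted p = 0.0251). Grin2b had 1659, 1472 and 1075 CPM in Rag1-/- + vehicle, against 917, 967 and 671 CPM in WT (0.72 ± 0.18, adjusted p = 0.0296). Replicate 3 was the lowest of the vehicle libraries for both. Grin2c, a subunit that astrocytes express in forebrain, went the other way at 35.4 ± 1.93 CPM in Rag1-/- + vehicle and 50.6 ± 5.90 CPM in WT (-0.51 ± 0.12). The metabotropic receptor gene Grm2 rose by 0.62.

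Among the scaffolds beneath those receptors more genes fell than rose, and most passed in neither direction. Of 34 postsynaptic density scaffold genes, 8 fell (23.5%) and 3 rose (8.82%), 13 had a positive log2 fold change and the median was -0.109, and 6 fell and 2 rose without WT replicate 6. Those that fell were Shank1, Shank2, Shank3, Dlgap3, Homer2, Dlg2, Dlg4 and Sipa1l1. With the covariate for reads outside exons 1 scaffold gene fell and 0 rose, with a median of -0.0378. Shank3, a master scaffold of the postsynaptic density, had 349.6, 325 and 294 CPM in Rag1-/- + vehicle, against 455, 473 and 572 CPM in WT. The groups were separate (-0.63 ± 0.11, adjusted p = 0.019), and the gap remained without WT replicate 6 (-0.52, adjusted p = 0.0112). Shank1 averaged 1700.2 ± 83.6 CPM in Rag1-/- + vehicle and 2467 ± 368 CPM in WT (-0.54). Dlgap3, which joins Shank to PSD-95, and Homer2, which joins Shank to metabotropic receptors, fell by 0.58 and 0.67 on the log2 scale. Dlg4, which encodes PSD-95, fell by 0.37 and missed the threshold without WT replicate 6 (adjusted p = 0.053). Homer1 was not called at 348 ± 7.61 CPM in Rag1-/- + vehicle and 368 ± 21.4 CPM in WT. The scaffolds that rose were Dlg3 (0.58) and Baiap2 (0.57), with the calmodulin-binding Nrgn (0.47, and 0.31 without WT replicate 6, adjusted p = 0.0701).

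Of 23 genes of the calmodulin-dependent kinase family and calmodulin, 4 rose and 2 fell, with 1 and 2 without WT replicate 6. With the covariate for reads outside exons 0 were called. Camk2a, the alpha subunit of calcium/calmodulin kinase II, had 4010.2, 3913 and 3567 CPM in Rag1-/- + vehicle, against 5480.0, 5514 and 6005 CPM in WT. The lowest WT value exceeded the highest vehicle value by a wide margin (-0.57 ± 0.11, adjusted p = 0.0205). Its inhibitor gene Camk2n1 fell by 0.59, while Camk2b, the beta subunit, rose by 0.44 and missed the threshold without WT replicate 6 (adjusted p = 0.0835). The plot of single genes by library sets Camk2a and Shank3 beside receptor and vesicle genes.

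**Figure D4:**
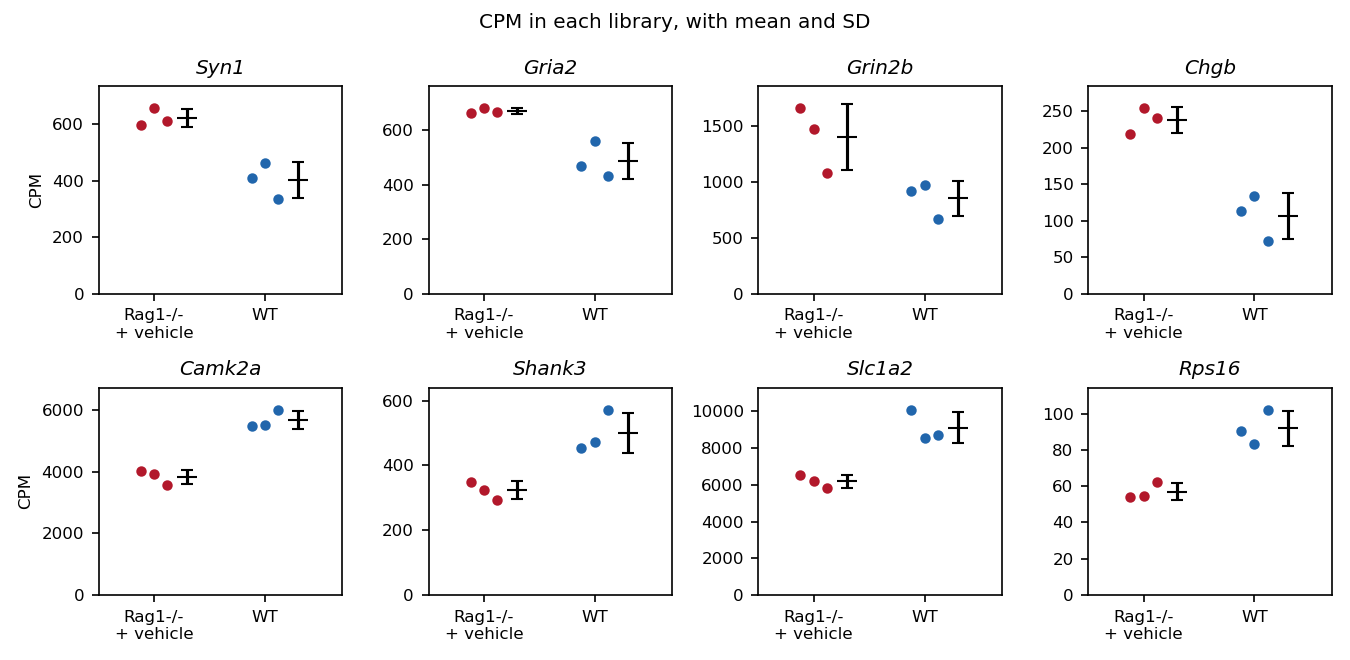
CPM of single genes in each library, with Rag1-/- + vehicle left of WT in every panel, horizontal marks for the mean and bars for the SD (n = 3 each). Vesicle, receptor and granin genes sit higher in Rag1-/- + vehicle, while Camk2a, Shank3, Slc1a2 and Rps16 sit lower.

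Among inhibitory synapse genes, the receptors called were all higher, and more of the proteins around them rose than fell. Of 18 GABA-A and GABA-B receptor genes, 4 rose (22.2%, against 6.28% of all genes tested) and 0 fell with and without WT replicate 6. With the covariate for reads outside exons 0 were called, and the median was 0.0642, against 0.282 without it. Gabbr2, a GABA-B receptor subunit, had 495, 461 and 455 CPM in Rag1-/- + vehicle, against 329, 379 and 259 CPM in WT (0.54 ± 0.13, adjusted p = 0.0276). Among the GABA-A receptor genes called were Gabrb2 (0.60) and Gabrg3 (0.44). Of 36 inhibitory postsynapse and receptor trafficking genes, 9 rose (25.0%) and 4 fell (11.1%), with 8 and 1 without WT replicate 6. The share that fell was near the 9.71% of all genes tested. Lhfpl4, a receptor partner needed to place GABA-A receptors with neuroligin, rose by 0.50 and the adhesion gene Slitrk3 by 0.62. Nsf, which also helps to traffic receptors, had 856, 843 and 876 CPM in Rag1-/- + vehicle, against 604, 710.2 and 449 CPM in WT (0.55 ± 0.15, adjusted p = 0.0355). Gphn, which encodes gephyrin, the scaffold of inhibitory synapses, overlapped between groups at 68.1, 60.2 and 63.6 CPM in Rag1-/- + vehicle, against 58.5, 61.3 and 52.8 CPM in WT (adjusted p = 0.24). Iqsec3, an exchange factor that binds gephyrin, fell by 0.67. Slc12a5, the chloride extruder KCC2, rose by 0.58 and missed the threshold without WT replicate 6 (adjusted p = 0.0684).

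Ion channels rose more often than they fell. Of 36 sodium, calcium and HCN channel genes, 9 rose (25.0%) and 2 fell, and of 63 potassium channel genes, 15 rose (23.8%) and 3 fell. Less WT replicate 6, these counts were 7 and 1, and 10 and 3. Scn2a, the sodium channel of the axon initial segment of pyramidal neurons, had 716, 766 and 682 CPM in Rag1-/- + vehicle, against 469, 521 and 345 CPM in WT (0.70 ± 0.15, adjusted p = 0.0246). The potassium channel gene Kcnd3 rose by 0.52, and the pacemaker channel gene Hcn2 fell by 0.38. The potassium channels that fell were Kcnj10, Kcnj16 and Kcnt2. Kcnj10 and Kcnj16 encode the inward rectifiers of astrocytes, and Kcnj16 had 28.0, 28.3 and 25.6 CPM in Rag1-/- + vehicle, against 46.6, 35.6 and 42.9 CPM in WT (-0.61 ± 0.10). Of 42 monoamine, acetylcholine and cannabinoid receptor genes, 10 rose (23.8%) and 0 fell. They included the adrenergic receptor gene Adra2a (0.66), the serotonin receptor gene Htr1a (0.51), the nicotinic subunit genes Chrna4 (0.72) and Chrnb2 (0.70), and Cnr1 (0.54). With that library left out, 7 rose and 1 fell.

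Granins and the enzymes that process prohormones fill dense-core vesicles, from which neurons release peptides. Of 19 such genes, 6 rose (31.6%) and 0 fell with and without WT replicate 6. Chgb, which encodes secretogranin-1, had 218, 254 and 240.0 CPM in Rag1-/- + vehicle, against 113, 133 and 72.1 CPM in WT (1.16 ± 0.19, adjusted p = 0.0169). Chga had 95.2, 96.1 and 93.1 CPM in Rag1-/- + vehicle, against 56.9, 62 and 35.4 CPM in WT (0.88 ± 0.18, adjusted p = 0.0225). Both genes were separate between groups, with WT replicate 6 the lowest. Vgf (0.78), the prohormone convertase gene Pcsk2 (0.82), Ptprn (0.60) and Ptprn2 (0.66) made up the rest. Of 47 neuropeptide and receptor genes, 6 rose and 1 fell, with 3 and 1 without WT replicate 6. Sst, which encodes somatostatin and marks a class of interneurons, had 71.9, 104 and 105 CPM in Rag1-/- + vehicle, against 45.8, 64.0 and 37.8 CPM in WT (0.93 ± 0.21, adjusted p = 0.0257).

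Chgb and Sst both carry the cyclic AMP response element, written TGACGTCA, the same on both strands, just before their starts in the RefSeq promoter windows of GRCm38.p6. The windows run from 250 bases before to 50 after each annotated start. The 60 bases shown lie at chr2:132781544-132781603 on the plus strand for Chgb and chr16:23890859-23890918 on the minus strand for Sst, with the element in capitals. It begins 72 bases before the start in Chgb and 48 before it in Sst. The sequences were chosen from granin and neuropeptide genes that were called higher and held the element. Its presence in both was therefore set by the choice.
Chgb: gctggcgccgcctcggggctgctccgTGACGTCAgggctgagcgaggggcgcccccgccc
Sst: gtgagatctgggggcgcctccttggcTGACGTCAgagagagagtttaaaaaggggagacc
Of 12244 tested genes with a promoter entry, 3.34% held TGACGTCA, against 3.16% of genes called higher and 3.97% of genes called lower. In the granin list 3 of 15 held it, and Pcsk1 and Scg2, the others besides Chgb, were not called. A match is a stretch of letters and not a measured binding site.

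Neuronal identity genes were less uniform. Of 28 excitatory neuron markers, 9 rose (32.1%) and 1 fell, with 4 and 1 without WT replicate 6. The transcription factor genes Tbr1 (0.44) and Neurod6 (0.61) were among those that rose. Slc17a7, the vesicular glutamate transporter that defines these cells, had 1251, 1292 and 1371 CPM in Rag1-/- + vehicle, against 1033, 1183 and 921 CPM in WT, and was not called (0.32, adjusted p = 0.0704). Of 36 interneuron markers, 5 rose and 2 fell, with 5 and 1 without WT replicate 6. Gad1 (adjusted p = 0.0953), Pvalb (adjusted p = 0.296) and Vip (adjusted p = 0.851) were not called, and Dlx5 rose by 1.18 at 2.34 ± 0.106 CPM in Rag1-/- + vehicle and 1.03 ± 0.122 CPM in WT. In bulk tissue, fewer cells of a type and less RNA per cell cannot be told apart. Immediate early genes, which follow recent neuronal activity, had 3 of 36 called higher (Junb, Egr1 and Egr4, 8.33%) and 1 lower (Tiparp, 2.78%). The share higher was near the 6.28% of all genes tested, and the share lower was below the 9.71% of all genes. The counts were 0 and 1 without WT replicate 6. Fos had 19.8, 48.0 and 38.7 CPM in Rag1-/- + vehicle, against 34.8, 15.9 and 16.2 CPM in WT, which overlapped (adjusted p = 0.264).

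Prkce encodes protein kinase C epsilon, a calcium-independent kinase, and is a gene the study followed. It lies on chromosome 17 at 86167785 to 86657919 of GRCm38 on the plus strand. It had 593, 606 and 605 CPM in Rag1-/- + vehicle, against 473, 515 and 430.0 CPM in WT. The vehicle values were within a narrow range above each WT value, and the log2 fold change was 0.35 ± 0.10 (adjusted p = 0.0391). It was 0.28 without WT replicate 6 and missed the threshold (adjusted p = 0.0821). Of 21 protein kinase C family genes and partners, 3 rose (Prkce, Akap5 and Nrgn) and 7 fell (Prkcd, Prkch, Prkcz, Prkd1, Prkd2, Prkd3 and Rack1). In the fit less WT replicate 6, 0 rose and 5 fell. With the covariate for reads outside exons 0 of the 21 were called. Rack1, a ribosome-bound anchor for protein kinase C, had 95.8, 103 and 104 CPM in Rag1-/- + vehicle, against 151, 139 and 174 CPM in WT (-0.61 ± 0.10, adjusted p = 0.017). Prkcz averaged 235 ± 4.36 CPM in Rag1-/- + vehicle and 290.0 ± 5.99 CPM in WT (-0.31 ± 0.07). Prkca and Prkcb overlapped between groups (adjusted p = 0.259 and 0.902).

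The 3' UTR of Prkce in GENCODE M21 is 3232 bases long and holds 1 match to the seed (bases 2 to 8) of miR-103-3p and 0 to that of miR-23a-3p, microRNAs that the study examined. Only this 7-base form in 1 transcript was searched. The study shows a predicted miR-23a-3p site in this UTR, and the search draws nothing about that site. The mature sequence from RefSeq is shown with its seed in capitals, and the site, at chr17:86654702-86654731 on the plus strand of GRCm38, with the paired bases in capitals.
mmu-miR-103-3p: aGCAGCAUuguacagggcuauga
Prkce site: tggagggagctcATGCTGCaaggacggtgt
MicroRNA levels were not measured in these libraries. Of 32 genes of the microRNA machinery, 1 rose, Fxr2 (0.36, adjusted p = 0.0253), and 0 fell, with 2 and 0 without WT replicate 6.

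Cytosolic ribosomal protein genes fell together. Of 33 small subunit genes, 27 fell (81.8%) and 0 rose, with a median log2 fold change of -0.629, and of 49 large subunit genes, 27 fell (55.1%) and 0 rose, with a median of -0.463. Less WT replicate 6, 25 and 21 fell and 0 rose in both lists. Rps16 had 53.9, 54.4 and 62.3 CPM in Rag1-/- + vehicle, against 90.1, 83.2 and 102 CPM in WT (-0.69 ± 0.11, adjusted p = 0.015). Rpl12 had 94.3, 99.4 and 105 CPM in Rag1-/- + vehicle, against 167, 138 and 195 CPM in WT (-0.74 ± 0.12, adjusted p = 0.0169). Both were separate between groups, with WT replicate 6 the highest. By library, the median small subunit gene lay at -0.414, -0.287 and -0.193 log2 units from the mean of the 6 libraries in Rag1-/- + vehicle, against 0.254, 0.0900 and 0.553 in WT. Reads that match several places were dropped in counting and these genes have many pseudogene copies, so their levels are uncertain. With offsets for GC content and gene length, 20 small and 14 large subunit genes fell. With the covariate for reads outside exons, 2 small and 0 large subunit genes fell, and the medians were -0.367 and -0.251.

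Translation factors were called in both directions. Of 56, 10 fell and 5 rose, with 4 and 5 without WT replicate 6. The elongation factor gene Eef2 had 1009.5, 1005 and 981 CPM in Rag1-/- + vehicle, against 1343, 1196 and 1348 CPM in WT (-0.38 ± 0.09), and Tpt1, whose mRNA is regulated like those of ribosomal proteins, fell by 0.69. Those that rose were Eif3a, Eif3c, Eif4g1, Eif4g3 and Eif5b. Eif4g3, a scaffold that bridges the cap and the small ribosomal subunit, had 293, 277 and 249 CPM in Rag1-/- + vehicle, against 183, 204 and 157 CPM in WT (0.59 ± 0.11, adjusted p = 0.0191).

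Messenger RNAs for ribosomal proteins classically begin at a C followed by pyrimidines, the 5' terminal oligopyrimidine tract that couples their translation to growth signals. A run of at least 8 pyrimidines that began with C within 10 bases of the annotated start was found in 22 of 61 ribosomal protein genes with a RefSeq promoter entry (36.1%), against 9.36% of all tested genes with an entry. Among ribosomal protein genes called lower it was found in 14 of 40 (35.0%), among all genes called higher in 7.95% and among all called lower in 12%. The run is in capitals in the 30 bases around the annotated start of 4 ribosomal protein genes called lower, shown as examples of a feature that most of the 61 lacked in this window.
Rpl35a: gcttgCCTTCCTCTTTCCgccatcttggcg
Fau: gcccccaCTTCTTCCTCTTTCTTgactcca
Rpl39: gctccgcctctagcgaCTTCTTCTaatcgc
Rps12: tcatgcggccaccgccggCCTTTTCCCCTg
They lie at chr16:33056472-33056501 (plus strand), chr19:6057937-6057966 (plus strand), chrX:37085203-37085232 (minus strand) and chr10:23787190-23787219 (minus strand) of GRCm38.p6, in that order. The log2 fold changes of Rpl35a, Fau, Rpl39 and Rps12 were -0.67, -0.61, -0.71 and -0.80.

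Nuclear genes of the respiratory chain were lower in part. Of 36 complex I genes, 5 fell and 0 rose, and of 40 genes of complexes II to V, 13 fell (32.5%) and 0 rose, with 3 and 8 falling without WT replicate 6. Cox7b, a small subunit of cytochrome oxidase, had 78.5, 78.9 and 96.1 CPM in Rag1-/- + vehicle, against 133, 113 and 171 CPM in WT (-0.72 ± 0.14, adjusted p = 0.0209). With offsets for GC content and gene length, 1 member of complexes II to V rose and 1 fell. The median of that list then turned positive (0.0670, against -0.146 without the offsets). For complex I the median likewise turned positive, at 0.0578, with 1 member falling. In glycolysis, 5 of 31 genes rose, among them the neuronal enolase gene Eno2 (0.59) and Pkm (0.48), and 2 fell, the astrocyte aldolase gene Aldoc and the pyruvate dehydrogenase kinase gene Pdk4 (-0.77), with 3 and 2 without WT replicate 6.

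Astrocyte genes fell. Of 34 tested, 18 fell (52.9%) and 0 rose, with a median log2 fold change of -0.404. Without WT replicate 6, 28 fell and the median was -0.536, a larger difference than with it. With the covariate for reads outside exons 14 fell, and with offsets for GC content and gene length 13. Their summed level was 13700, 12800 and 11900 CPM in Rag1-/- + vehicle, against 20600, 17500 and 17500 CPM in WT, which did not overlap. Slc1a2, the main glutamate transporter of forebrain, had 6556, 6206 and 5814 CPM in Rag1-/- + vehicle, against 10094, 8544 and 8727 CPM in WT (-0.56 ± 0.10, adjusted p = 0.019). Glul, which encodes glutamine synthetase, had 1777, 1659.7 and 1574 CPM in Rag1-/- + vehicle, against 2742, 2374 and 2746 CPM in WT (-0.65 ± 0.09, adjusted p = 0.015). Ndrg2 (-0.75), Cldn10 (-0.69), Aldoc (-0.65) and Mlc1 (-0.62) also fell, as did the water channel gene Aqp4 (-0.38) and the potassium channel gene Kcnj10 (-0.59). Gfap, which rises in reactive astrocytes, was not called at 58.3 ± 18.6 CPM in Rag1-/- + vehicle and 83.7 ± 2.20 CPM in WT (-0.52, adjusted p = 0.0592), nor was the gap junction gene Gja1 (-0.40, adjusted p = 0.0646).

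Genes of glycogen, which the brain stores mainly in astrocytes, fell beside them. Of 18 tested, 7 fell (38.9%) and 0 rose, and 8 fell without WT replicate 6. With the covariate for reads outside exons 2 fell. Besides Ppp1r3c, they included Ppp1r3g, Ugp2 (-0.45, but 0.13 with offsets for GC content and gene length), which makes the glucose donor for synthesis, and 3 subunits of phosphorylase kinase, Phka1 (-0.61), Phkb (-0.52) and Phkg1 (-0.74). Phka1 had 24.4, 22 and 20.9 CPM in Rag1-/- + vehicle, against 36.2, 29.2 and 37.8 CPM in WT, with no overlap (adjusted p = 0.0191). Genes for building and for breaking down glycogen were both among those that fell. Astrocyte markers were lower in the same libraries, and their part in the glycogen values was not tested.

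**Figure D5:**
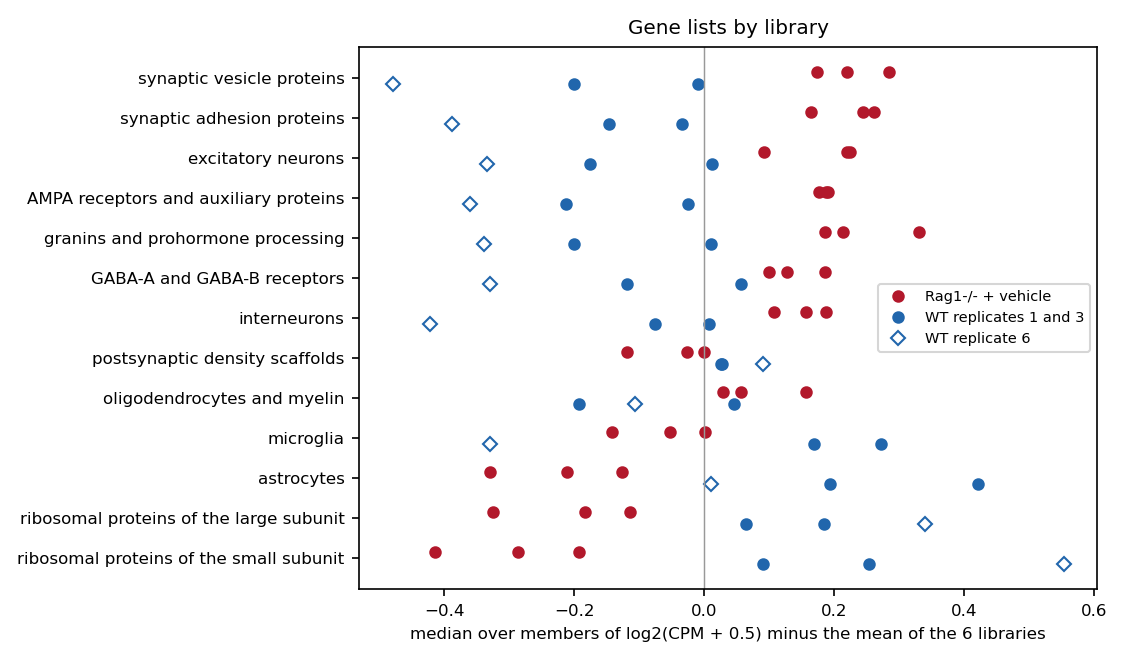
Each row is a gene list and each point a library, drawn as the median over members of log2(CPM + 0.5) minus the mean of the 6 libraries, with vehicle points above WT points. Astrocyte points are lower in the 3 vehicle libraries (-0.127, -0.211 and -0.329) than in the WT libraries (0.421, 0.194 and 0.0108), and synaptic vesicle points are higher in the vehicle libraries.

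Other glial and vascular lists shifted less and depended on WT replicate 6. Of 31 microglial genes, 7 fell and 0 rose, and 10 fell without that library. With offsets for GC content and gene length 1 fell, with a median of -0.0574, and with the covariate for reads outside exons 0 fell. Tyrobp, an adaptor of microglial receptors, had 5.89, 6.70 and 5.75 CPM in Rag1-/- + vehicle, against 9.18, 9.68 and 9.26 CPM in WT (-0.62 ± 0.12, adjusted p = 0.0214), and Siglech (-0.56), Fcgr3 (-0.69) and Cst3 (-0.48) fell. The homeostatic genes Cx3cr1, P2ry12 and Tmem119 were not called (adjusted p = 0.775, 0.0941 and 0.934). The summed level of the list was 1200, 1240 and 1140 CPM in Rag1-/- + vehicle, against 1650, 1450 and 1220 CPM in WT, so that WT replicate 6 lay among the vehicle libraries. Of 37 endothelial and pericyte genes, 1 fell, Rgs5, and 0 rose, with 6 and 0 without WT replicate 6. Of 36 oligodendrocyte genes, 1 rose, Cldn11 (0.53), and 3 fell, among them Plekhb1 (-0.71), with 0 and 1 without WT replicate 6. Mbp, the myelin basic protein gene, overlapped at 792, 717 and 809 CPM in Rag1-/- + vehicle, against 1214, 790.0 and 1742 CPM in WT.

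Meningeal genes, which mark the membranes on the brain surface, leaned upward. Of 39 tested, 5 rose (Igf2, Islr, Fmod, Osr1 and Bmp6) and 0 fell, with 6 and 0 without WT replicate 6. Islr had 15.5, 10.8 and 13.6 CPM in Rag1-/- + vehicle, against 6.77, 9.58 and 5.48 CPM in WT (0.87 ± 0.21, adjusted p = 0.0284). The summed level of the list was 914, 753 and 705 CPM in Rag1-/- + vehicle, against 590, 725 and 409 CPM in WT, which overlapped. Among blood and neutrophil markers 3 of 10 fell, S100a8, S100a9 and Lcn2, and 4 fell without WT replicate 6. Their WT values came from 1 library: S100a8 had 0.220, 0.0266 and 0.188 CPM in Rag1-/- + vehicle, against 0.530, 5.45 and 0.463 CPM in WT, the high value being WT replicate 3. S100a9 (7.21 CPM) and Lcn2 (3.81 CPM) peaked in that library too. Without WT replicate 3 the log2 fold changes of S100a8 (-3.85), S100a9 (-3.36) and Lcn2 (-3.65) were -1.70, -1.31 and -1.02, with no call. Of 49 interferon response genes, 1 rose, Stat2 (0.39, adjusted p = 0.0266), and 0 fell, the same counts as without WT replicate 6.

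Non-coding genes made up much of the lower set. Of 1064 non-coding genes that lie inside an intron of a coding gene, 472 fell (44.4%) and 5 rose, with a median log2 fold change of -2.71. Their median level was 0.193, 0.213 and 0.188 CPM in Rag1-/- + vehicle, against 0.559, 0.316 and 2.42 CPM in WT. The levels followed the share of reads outside exons, highest in WT replicate 6 and next in WT replicate 1, and with that share as a covariate 95 genes of all kinds were called lower, against 1743 without it. Without WT replicate 6, 91 fell and 4 rose. Among 14496 protein-coding genes the directions were near even, with 1115 higher (7.69%) and 1059 lower (7.31%), and 588 and 731 without WT replicate 6. Of 27 nuclear long non-coding RNAs and small nucleolar RNA hosts, 13 fell and 2 rose, with 4 and 2 without WT replicate 6. With the covariate 0 were called, and the median was -0.00867, against -0.551 without it. Kcnq1ot1, an imprinted transcript on chromosome 7 that silences its neighbours, had 11.8, 15.6 and 14.8 CPM in Rag1-/- + vehicle, against 47.6, 22.8 and 377 CPM in WT (-3.41, and -1.32 without WT replicate 6). Malat1, a nuclear speckle RNA, overlapped at 646, 433 and 958 CPM in Rag1-/- + vehicle, against 1593, 944 and 5336 CPM in WT. Mirg (-1.63), A330023F24Rik (-2.20), Mir99ahg (-2.17) and 9530059O14Rik were the others named by rank, and without WT replicate 6 Mirg, A330023F24Rik and Mir99ahg were at -1.21, -1.24 and -1.19.

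The non-coding genes with the largest rise were both Y RNAs of the mouse, small cytoplasmic RNAs that bind the Ro60 protein and are abundant in vesicles outside cells. Rny3 had 11.1, 12.2 and 17.6 CPM in Rag1-/- + vehicle, against 2.56, 3.08 and 4.14 CPM in WT (2.06 ± 0.31, adjusted p = 0.015). Rny1 had 7.68, 8.88 and 11.5 CPM in Rag1-/- + vehicle, against 2.12, 2.53 and 2.55 CPM in WT (1.96 ± 0.26, adjusted p = 0.015). The groups were far apart for both, and WT replicate 6 lay with the other WT libraries. Their sequences from GRCm38 lie near each other on chromosome 6, at chr6:47788069-47788180 on the minus strand for Rny1 and chr6:47781624-47781725 on the plus strand for Rny3. Capitals mark the 3 stretches of at least 8 bases that they share, 28 bases in all.
Rny1: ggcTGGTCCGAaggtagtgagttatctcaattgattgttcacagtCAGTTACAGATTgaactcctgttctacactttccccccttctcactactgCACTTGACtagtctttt
Rny3: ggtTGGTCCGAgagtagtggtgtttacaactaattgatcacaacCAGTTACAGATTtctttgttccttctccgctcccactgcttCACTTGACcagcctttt
RNAs of 112 and 102 bases are shorter than most fragments of such libraries and have copies elsewhere in the genome, so their levels depend on size selection and on how reads with several matches were treated. Gm26917, a non-coding gene on chromosome 17, had 23108, 21153 and 10243 CPM in Rag1-/- + vehicle, against 5298, 9005 and 2679 CPM in WT (1.68 ± 0.39, adjusted p = 0.0271). Peg13, an imprinted transcript of brain, rose by 0.54, and Gm13375 by 0.43.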

How the data were processed

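PFC RNA of 9 libraries, 3 per group, was analysed, and the comparison used 6. The authors prepared directional libraries, sequenced 75-base pairs, aligned them with STAR (2.7.5c) to GRCm38 with GENCODE M24 after bcl2fastq (2.18.0.12), and deposited 1 table of raw counts per gene made with HTSeq (0.11.1 per the labels) over exons without use of strand. The 5 summary rows were kept out of library sizes and tests. Reads outside exons took 6.54 to 30.1% of uniquely assigned reads.

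In R 4.3.3, edgeR (4.0.16) was run on all 9 libraries. Rows were kept by filterByExpr at a count of 10 and a total of 15, libraries were scaled by TMM, and the quasi-likelihood F test (2-sided) was adjusted by Benjamini-Hochberg over 17948 genes. The script was tested on simulated data. Fold changes are log2, Rag1-/- + vehicle over WT, and ± is the SE for them and the SD for CPM. CPM use TMM library sizes. Reads per library set the precision of low genes.

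Identifiers were matched to GENCODE M21 (55230 of 56246, 98.19%). Promoters and microRNAs were from RefSeq. The 55 gene lists, the comparison and the rules were chosen with earlier results of these data known. Named genes were Rag1 and Prkce; up to 15 protein-coding and 5 non-coding genes per direction, called, at 5 CPM or more, without overlap between groups, with under 20% of exonic length shared with another gene, and with the same sign and an unadjusted p under 0.05 without WT replicate 6, ranked by the smaller absolute fold change; and up to 6 called members per list. Some genes these rules select are not reported here.

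Alternatives were DESeq2 (1.42.0), limma-voom (3.58.1), other filters and scaling, GC content and length offsets (mgcv 1.9.3), a replicate block, a covariate and leaving out each library. Replicate numbers 1 and 3 occur in both groups, and their libraries' deviations correlated at 0.16 and 0.0172, so the numbers were not shown to pair. Figures used matplotlib (3.10.9) and a pseudocount of 0.5.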

Additional observations from a re-analysis of the deposited data

How the results depend on the processing

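The number of genes called moved by more than 1.5 times under several settings. Given as all, higher and lower against 2871, 1128 and 1743, it was 4785, 2160 and 2625 in DESeq2 on 9 libraries, 1608, 815 and 793 in limma-voom, 5089, 2351 and 2738 with no filter, 1816, 804 and 1012 with GC content and length offsets, and 109, 14 and 95 with a covariate for reads outside exons. edgeR on the 6 libraries called 0 genes in both directions (5387 at an unadjusted p under 0.05), and a fold of at least 1.5 left 1, 1 and 0. Chosen after seeing the data, library quality weights in limma-voom gave 6140, 2910 and 3230, and DESeq2 less WT replicate 6 gave 2004, 1148 and 856. Leaving out 1 library at a time, the counts ran from 0 to 6602, from 0 to 3277 higher and from 0 to 3325 lower. DESeq2's size factors (2963), DESeq2 on 6 libraries (3638) and a minimum of 1 CPM in 3 libraries (2562) stayed within 1.5 times of 2871. The causes were not tested.

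With a replicate block, 712 genes were called, 223 higher and 489 lower, and with the block and GC content and length offsets together 1205, 615 and 590. The groups share 2 numbers, so the block rests on few libraries. Of 273 named genes, 137 stayed called with the same sign under the block, 179 under the offsets, 220 without WT replicate 6 and 27 with the covariate. Under the offsets the log2 fold change turned positive, with no call, for Zfp931 (0.22), Ndufv2 (0.070), Ndufa4 (0.13), Cox7c (0.22), Ugp2 (0.13), Psma6 (0.0033), Psmc6 (0.39), Gpr34 (0.29) and Dlx6os1 (0.044), and with the block as well for Psmc6 (0.20) and Gpr34 (0.015). Medians of the 55 lists kept their sign in 48 to 55 lists under each setting.

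The difference in the share of reads outside exons, -9.64 percentage points, was -8.54 as a share of all reads, ran from -9.54 to -13.8 when any library but WT replicate 6 was left out, and was -2.76 without WT replicate 6. Genes with few reads are limited by depth, and 3 libraries per group limit every test.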

Other observations

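Of 53 SR, hnRNP and Elav splicing factor genes, 7 rose and 0 fell, with and without WT replicate 6. Hnrnpa2b1, which binds RNAs sorted into dendrites, had 167, 184 and 185 CPM in Rag1-/- + vehicle, against 124, 134 and 139 CPM in WT, with no overlap (log2 fold change 0.43 ± 0.08, adjusted p = 0.0208 by edgeR). Of 72 growth factor, BMP and Wnt genes, 7 rose (9.72%) and 6 fell (8.33%), with 3 and 7 without WT replicate 6, shares near the 6.28% and 9.71% of all genes tested. Vegfa, which drives vessel growth, had 35.6, 37.2 and 34.8 CPM in Rag1-/- + vehicle, against 52.0, 50.7 and 56.6 CPM in WT (-0.57 ± 0.08, adjusted p = 0.015). Fgf2 (-0.79) and the BMP target Id4 (-0.50) fell, and Bmp3 rose by 0.80. Of 54 genes of extracellular vesicle biogenesis, 1 fell, the tetraspanin gene Cd63, at 24.1, 23.5 and 23.7 CPM in Rag1-/- + vehicle, against 36.3, 34.5 and 31.1 CPM in WT (-0.51 ± 0.08, adjusted p = 0.0169), a share below that of all genes. Without WT replicate 6, 2 fell. Of 60 cytoskeleton genes, 13 rose, among them Tubb4a (0.92), and 6 fell, among them the kinesin gene Kif5a (-0.75, and -0.49 without WT replicate 6), with 5 and 6 called without that library.

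Genes grouped by the first letters of their symbols gave 96 families with at least 15 protein-coding members tested. Semaphorins (Sema) had 6 of 20 called higher and 0 lower and synaptotagmins (Syt) 4 of 16 higher and 0 lower, while the solute carriers (Slc) had 37 of 278 higher (13.3%) and 11 lower (3.96%). Without WT replicate 6 these counts were 4 and 0, 4 and 0, and 20 and 14, so that the excess of higher over lower solute carriers was smaller. Cytochrome oxidase genes (Cox) had 8 of 24 called lower and 0 higher, and 5 and 0 without WT replicate 6.

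Calls varied with gene properties. From the lowest to the highest quintile of GC content of protein-coding genes, 5.51, 7.15, 7.35, 8.53 and 9.95% were called higher and 9.43, 7.94, 7.0, 6.28 and 5.77% lower. From the lowest to the highest quintile of mean CPM, 0.414, 2.55, 6.69, 11.9 and 16.9% were called higher and 2.55, 6.52, 7.93, 8.04 and 11.5% lower.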
